A study of Danio rerio with 4 samples.

Results

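The genes of the spliceosome core and the hnRNP family were followed in whole zebrafish embryos of the AB strain, harvested at 48 hours post fertilization. Members were taken by gene symbol, ignoring case: names that start with snrp, snrnp, sf3a, sf3b, prpf, u2af or hnrnp, names that start with lsm and a number, and eftud2, cdc5l, sart1, ptbp1a, ptbp1b and ptbp2a. The rule found 74 of 32379 listed genes, of which 20603 carried a symbol. Eggs at the 1-cell stage received 3 ng of sMOsrsf5a, a morpholino (an antisense oligomer) against the splicing factor gene srsf5a, or 3 ng of a control morpholino. Each group had 2 libraries, whose replicate numbers come from the sample titles. The protocol gives 80 embryos per condition, so it is not stated that both libraries of a condition were made from different pools, and the spread that p-values measure may be technical. Every embryo had received a morpholino, and uninjected embryos were not analysed here.

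The spliceosome removes introns from new transcripts. The U1 particle, built on a small nuclear RNA, pairs with the 5′ splice site, the U2 particle binds the branch point near the 3′ splice site, and the tri-snRNP then brings in the RNAs that form the catalytic centre. Rings of Sm and LSm proteins hold these small RNAs. The hnRNP proteins coat new transcripts and often keep exons out of the mRNA, where SR proteins such as the srsf5a product often keep them in. Roles stated below come mostly from work on human and yeast proteins.

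The injected oligomers are the designed sequences of the study and are shown because both carry letters complementary to a 5′ splice site motif. That motif spans the end of an exon and the first bases of an intron, the stretch that the U1 particle reads. Capitals mark the match to the reverse complement of AGGTNAG, searched on both strands, and neither oligomer held the motif on its own strand.
sMOsrsf5a: ggattcagtCTCACCTctcactgca
CtrlMO: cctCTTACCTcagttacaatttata
Both are 25 bases long. The match covers bases 10 to 16 of the srsf5a oligomer and bases 4 to 10 of the control oligomer, counted from the 5′ end, and it describes these letters without placing them in the genome.

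Most members kept their level within a narrow range. Of the 74 members, 72 passed the filter on low counts and were tested, and 0 passed a Benjamini-Hochberg adjusted p of 0.05 when fitted by quasi-likelihood in edgeR, against 1.98% of all 19917 genes tested. At an unadjusted p under 0.05 edgeR gave 2 members, both lower with the srsf5a morpholino, where 20.6% of all genes fell under that value. DESeq2 called 1 member, hnrnpr, where it called 5.49% of all genes with an adjusted p. The authors' deposited table, made from the same libraries by submitters whose notes name DESeq2 too, holds 1 member under 0.05. It was hnrnpr, lower, beside 6.12% of the genes there. The log2 fold changes of the 72 members, srsf5a morpholino over control, ran from -0.43 to 0.25 with a median of -0.05, and all 72 lay within 0.5 of 0, as did 84.5% of all genes tested. This range depends on the match by name, since genes listed as PTBP1 and PTBP2 without a paralog letter were not members. PTBP2 stood at -0.53 ± 0.12 (adjusted p = 0.0679 in edgeR), and the genes listed as PTBP1 at 0.16 ± 0.09 and 0.05 ± 0.09. Within 0.25 of 0 lay 69 members (95.8%), against 57.0% of all genes. For 63 members (87.5%) the 95% interval of the log2 fold change itself, not adjusted for the number of genes, lay inside -0.5 to 0.5, as it did for 33.3% of all genes. Members were measured with less error than most genes, with a median standard error of 0.11 against 0.16 over all genes tested.

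The 4 libraries held 15139525 to 36240893 reads assigned to genes, and members took 10769 and 12230 CPM (gene reads scaled to library size) in srsf5a-morpholino replicates 1 and 2, against 12254 and 12571 CPM in control replicates 1 and 2. srsf5a-morpholino replicate 1 stood apart. It had the lowest of the 4 values for 45 of the 72 tested members (62.5%), where it was lowest for 25.6% of all genes. It also had the highest share of listed entries with several alignments (34.2%, others 29.0% to 32.1%). Its share assigned to genes was the lowest (53.0%, others 55.5% to 57.1%). A link between these shares and the members' values was not tested. Without that library the median of the members was 0.01 and 35 of 72 lay below 0. Without srsf5a-morpholino replicate 2 it was -0.12 and 53 lay below 0, and with all libraries 48 did. CPM values are not divided by gene length, so levels are compared between libraries and not between genes. In whole embryos, fewer cells that use a gene and less of its RNA per cell cannot be told apart.

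**Figure D1:**
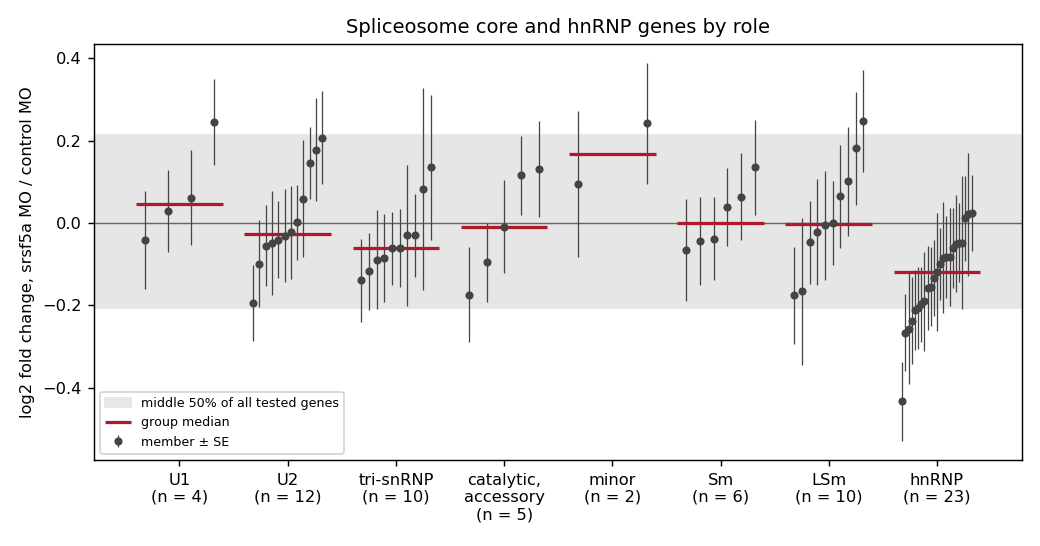
Log2 fold changes (y axis, srsf5a morpholino over control) of the 72 tested members, one point per gene with its standard error, by role along the x axis; red lines are group medians and the grey band holds the middle 50% of all genes tested, from -0.21 to 0.21. Most points lie in the band, and the hnRNP group has the lowest median, -0.12, and the lowest single value, -0.43.

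None of the 4 genes placed with the U1 particle passed the test in edgeR. SNRPA (ENSDARG00000018890), whose protein binds a stem-loop of the U1 RNA, had 99.2 and 115 CPM in srsf5a-morpholino libraries, against 88.8 and 91.7 CPM in control libraries. Both srsf5a-morpholino libraries lay above both controls. The log2 fold change was 0.25 ± 0.10 (SE; adjusted p = 0.245 in edgeR), and it ran from 0.13 to 0.35 as each library was left out in turn. SNRNP70 (ENSDARG00000077126), which links the U1 particle to SR proteins, had 209 and 236 CPM with the srsf5a morpholino, against 216 and 219 CPM in controls. SNRPC, which helps U1 hold the 5′ splice site, had 48.1 and 57.1 CPM with the srsf5a morpholino, against 57.2 and 51.2 CPM in controls. In both genes the groups overlapped, and their log2 fold changes were 0.03 ± 0.10 for SNRNP70 and -0.04 ± 0.12 for SNRPC.

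The 12 genes of the U2 particle and the U2AF factor lay on both sides of 0, with 5 above, 7 below and a median log2 fold change of -0.03. A gene listed as U2AF2 (ENSDARG00000012505), the large subunit that binds the polypyrimidine tract, had 112 and 121 CPM with the srsf5a morpholino, against 134 and 133 CPM in controls. Both srsf5a-morpholino values were below both controls, by a log2 fold change of -0.19 ± 0.09 (SE, adjusted p = 0.29 in edgeR). The other gene named U2AF2 (ENSDARG00000011740) had 175 and 193 CPM against 185 and 197 CPM in controls, and here the groups overlapped (-0.05 ± 0.10). U2AF1, the small subunit that reads the end of the intron, had a log2 fold change of 0.00 ± 0.09.

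Among the subunits of SF3a and SF3b, the complexes that hold U2 at the branch point, SF3B6 averaged 33.2 ± 1.72 CPM with the srsf5a morpholino, against 28.6 ± 2.44 CPM in controls (SD, n = 2 each). SF3A1 had 143 and 144 CPM against 129 and 131 CPM in controls. In both genes the srsf5a-morpholino libraries lay above the controls, with log2 fold changes of 0.21 ± 0.11 and 0.15 ± 0.09 (adjusted p = 0.355 and 0.397 in edgeR). SNRPB2, the U2B'' protein of the U2 particle, had 24.2 and 28.9 CPM with the srsf5a morpholino, against 23.1 and 23.8 CPM in controls, a log2 fold change of 0.18 ± 0.13. SF3B1, the large subunit around the branch point adenosine, had 421 and 452 CPM against 445 and 452 CPM in controls, and its log2 fold change was -0.04 ± 0.09 with a 95% interval of -0.26 to 0.18. The remaining members SF3B5, SF3B4, SF3A2, SNRPA1 and SF3B2 lay between -0.10 and 0.06. In all 12 genes the 95% interval stayed inside -0.5 to 0.5.

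Of the 10 genes of the tri-snRNP, 8 lay below 0, and the median log2 fold change was -0.06. PRPF8 (ENSDARG00000026180), the protein at the catalytic centre, had 521 and 552 CPM with the srsf5a morpholino, against 585 and 579 CPM in controls. SNRNP200 (ENSDARG00000077536), the helicase that unwinds the U4 and U6 RNAs, had 283 and 319 CPM against 338 and 324 CPM in controls. In both the srsf5a-morpholino libraries were below the controls, with log2 fold changes of -0.12 ± 0.09 and -0.14 ± 0.10 (adjusted p = 0.527 and 0.483 in edgeR). EFTUD2, the GTPase that works with PRPF8, overlapped between groups at 134 and 145 CPM with the srsf5a morpholino, against 150 and 142 CPM in controls. PRPF6, a bridge between the U5 and U4/U6 parts, had 27.6 and 30.2 CPM against 30.7 and 30.7 CPM in controls. PRPF3, a U4/U6 protein, had 5.38 and 5.61 CPM against 4.94 and 5.04 CPM in controls, with a log2 fold change of 0.14 ± 0.18. The others, sart1, PRPF31, PRPF4, SNRNP27 and SNRNP40, lay between -0.09 and 0.08. For PRPF4, whose libraries ran from 7.98 to 12.8 CPM, the interval of -0.50 to 0.66 was the widest among members. The tri-snRNP median was -0.16 with srsf5a-morpholino replicate 2 left out and -0.01 with replicate 1 left out.

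Of the factors that join or act at the catalytic stage, PRPF19, the ubiquitin ligase of the complex that bears its name, had 146 and 161 CPM with the srsf5a morpholino, against 143 and 140 CPM in controls. CDC5L, its partner, had 85.4 and 89.0 CPM against 97.6 and 89.0 CPM in controls. PRPF38A and prpf38b, which join before activation, stood at log2 fold changes of 0.13 ± 0.12 and -0.17 ± 0.12. Their gap (0.31) was the widest in any of 9 families compared, which were formed by name only. Neither gene passed the test (adjusted p = 0.573 and 0.443 in edgeR). PRPF38A had 24.2 and 27.2 CPM with the srsf5a morpholino, against 22.6 and 24.2 CPM in controls. Its srsf5a-morpholino libraries lay above both controls, but by almost nothing in replicate 1. In prpf38b, 56.0 and 67.8 CPM lay below the controls at 69.0 and 70.7 CPM. The difference between these genes was not tested. PRPF18, a factor of the second step, had a log2 fold change of -0.01 ± 0.11. The minor spliceosome, which removes a rare class of introns, was represented by SNRNP25 (0.24 ± 0.15) and snrnp48 (0.09 ± 0.18). SNRNP25 had 12.3 and 13.3 CPM with the srsf5a morpholino, against 9.75 and 11.7 CPM in controls. Their median was 0.17, and 0.32 without control replicate 2.

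The Sm proteins, which form the ring shared by most spliceosomal particles, held the narrowest range of the larger groups. The 6 genes lay between -0.06 and 0.14 with a median of 0.00. Their signs turned on single libraries. Without control replicate 2 all 6 lay above 0, and without srsf5a-morpholino replicate 2, 5 lay below 0. SNRPB had 194 and 232 CPM with the srsf5a morpholino, against 203 and 186 CPM in controls, so the groups overlapped. SNRPD2 had 71.0 and 79.7 CPM against 73.1 and 81.9 CPM in controls, and SNRPD1 64.3 and 73.1 CPM against 63.4 and 67.9 CPM. Both genes listed as SNRPD3 had small negative values, -0.06 ± 0.12 (ENSDARG00000013800) and -0.04 ± 0.10 (ENSDARG00000076283).

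The LSm genes encode the ring of the U6 RNA, a related cytoplasmic ring for mRNA decay and some proteins outside splicing. Of 12 members 10 were tested, 4 above 0 and 6 below, with a median of 0.00. LSM2 (ENSDARG00000070867), a part of both rings, had 23.9 and 23.9 CPM with the srsf5a morpholino, against 18.4 and 21.7 CPM in controls, a log2 fold change of 0.25 ± 0.12 (adjusted p = 0.315 in edgeR). Both srsf5a-morpholino libraries were above both controls. LSM6 showed the reverse order at 32.1 and 27.7 CPM, against 32.3 and 35.1 CPM in controls (-0.18 ± 0.12). LSM8, the subunit that sets the nuclear U6 ring apart, had a log2 fold change of 0.10 ± 0.13, and LSM1, its cytoplasmic counterpart, one of -0.17 ± 0.18. LSM5 (0.18 ± 0.14), LSM7 (0.07 ± 0.12), LSM4 (-0.05 ± 0.10), LSM3 (-0.02 ± 0.13), LSM12 (0.00 ± 0.10) and lsm14aa (-0.01 ± 0.13), an mRNA-granule protein gene, did not pass either. The group's median was 0.11 without control replicate 2, the library left out being the deeper control. The other 2 members were not tested. LSM14B had 15 and 7 reads with the srsf5a morpholino, against 4 and 4 reads in controls, and LSM11, of the particle that processes histone mRNA, had 0 reads in all 4 libraries, which allows 0.0818 to 0.2 CPM per library for counting error only.

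**Figure D2:**
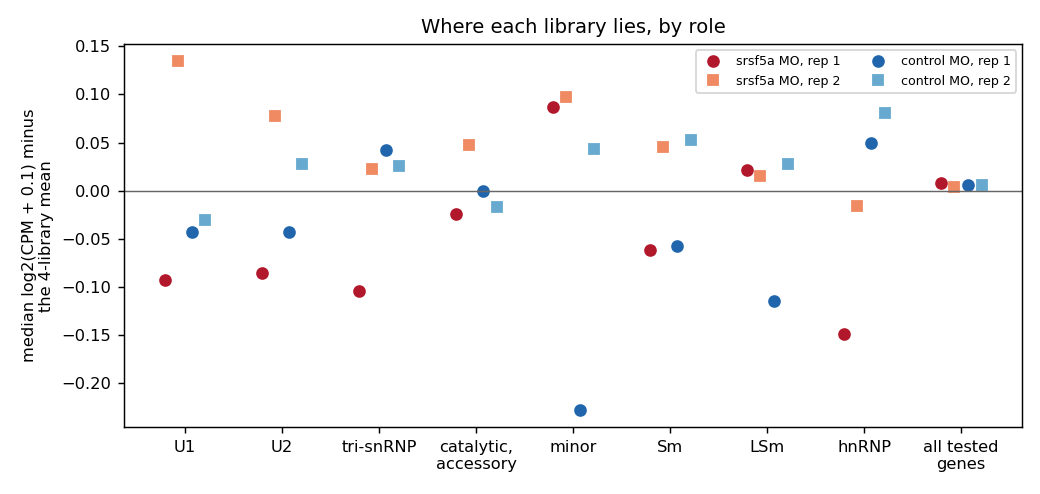
Median over the tested genes of each role (x axis) of log2(CPM + 0.1) in a library minus the gene's mean over the 4 libraries (y axis), with red for the srsf5a morpholino and blue for the control, circles for replicate 1 and squares for replicate 2. srsf5a-morpholino replicate 1 is lowest in 6 of the 8 roles, and in hnRNP genes both srsf5a-morpholino libraries lie below both controls, at -0.15 and -0.02 against 0.05 and 0.08.

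The hnRNP genes leaned one way. Of 23 members here 20 were below 0 on the log2 fold change scale and the median was -0.12, while 49.9% of all genes lay below 0 and their median was 0.00. In 13 of the 23 genes (56.5%) both srsf5a-morpholino libraries lay below both controls, against 26.3% of all genes tested. In 0 of 23 were both above, against 26.1% of all genes. The other 49 tested members counted 8 below and 10 above. Summed over the 23 genes, 6621 and 7666 CPM stood in srsf5a-morpholino libraries, against 7874 and 8118 CPM in controls. Means were 7144 ± 739 CPM with the srsf5a morpholino and 7996 ± 172 CPM in controls (SD, n = 2 each), so the gap of the means was close to the spread of the srsf5a-morpholino pair. The median remained below 0 as each library was left out, from -0.21 without srsf5a-morpholino replicate 2 to -0.06 without srsf5a-morpholino replicate 1, where 17 of 23 genes lay below 0.

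hnrnpr (ENSDARG00000014569), close kin of the RNA-binding protein gene SYNCRIP and known from mouse motor neurons for its part in axonal RNA transport, was the member nearest to a call. It had 55.2 and 58.0 CPM with the srsf5a morpholino, against 79.6 and 73.5 CPM in controls. Both srsf5a-morpholino libraries were below both controls, and each pair lay close together. The log2 fold change was -0.43 ± 0.10 (SE; 95% interval -0.66 to -0.21), and edgeR gave an adjusted p of 0.072. Over the 9 alternative settings the value stayed between -0.49 and -0.38 while the adjusted p ran from 0.0283 to 0.288. DESeq2 on the same counts gave -0.44 with an adjusted p of 0.0283. The authors' deposited table, from the same libraries and so not a separate experiment, gives -0.40 with an adjusted p of 0.0233.

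HNRNPM (ENSDARG00000061735), a regulator of alternative exons, was the other member with an unadjusted p under 0.05. It had 399 and 410 CPM with the srsf5a morpholino, against 503 and 470 CPM in controls, a log2 fold change of -0.27 ± 0.09 (adjusted p = 0.178 in edgeR). HNRNPL (ENSDARG00000035324), which binds CA repeats, had 343 and 393 CPM against 446 and 422 CPM in controls (-0.24 ± 0.11, adjusted p = 0.262). The groups did not overlap in either gene. A gene listed as HNRNPU (ENSDARG00000004735), a nuclear scaffold protein, had 515 and 556 CPM against 612 and 627 CPM in controls, and the other HNRNPU (ENSDARG00000015206) had 139 and 149 CPM against 165 and 164 CPM. Their log2 fold changes, -0.21 ± 0.10 and -0.20 ± 0.09, lay 0.01 apart, and all 4 srsf5a-morpholino values were below the controls of their gene.

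**Figure D3:**
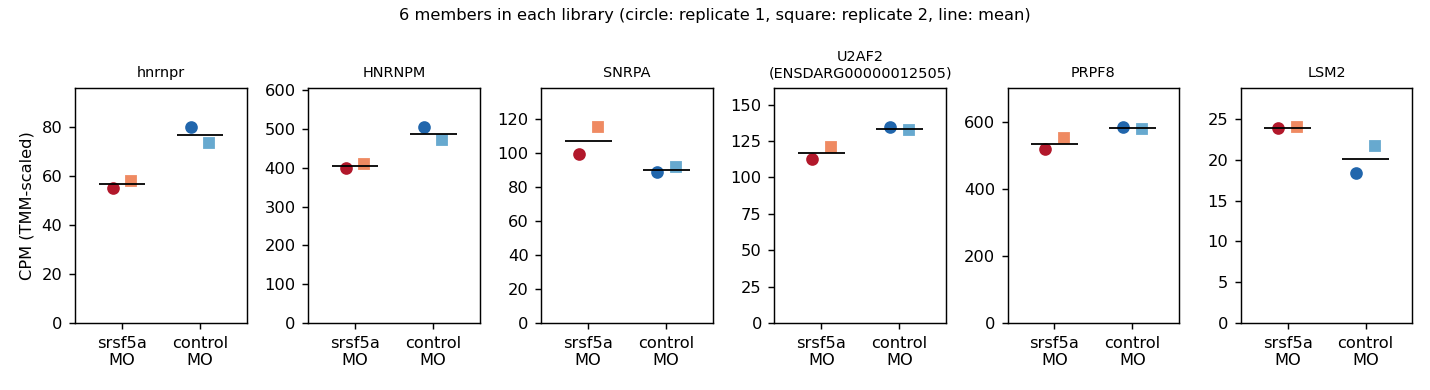
CPM (y axis, from 0) of 6 members in each library, srsf5a morpholino left and control right in each panel, with lines at the group means. hnrnpr, HNRNPM, U2AF2 and PRPF8 lie lower and SNRPA and LSM2 higher with the srsf5a morpholino, and none passed an adjusted p of 0.05 in edgeR.

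The A/B type hnRNP genes, which bind short motifs across transcripts, included HNRNPAB, with 1136 and 1454 CPM with the srsf5a morpholino, against 1320 and 1493 CPM in controls. Its groups overlapped, at a log2 fold change of -0.12 ± 0.14. The hnrnpa0 copies stood at -0.26 ± 0.14 for hnrnpa0l, -0.19 ± 0.12 for hnrnpa0b and -0.08 ± 0.13 for hnrnpa0a. In hnrnpa0l, 662 and 850 CPM with the srsf5a morpholino stood against 928 and 878 CPM in controls, and the lowest value was that of srsf5a-morpholino replicate 1. Without srsf5a-morpholino replicate 2 hnrnpa0l (-0.45) and hnrnpr (-0.47) were called, the only members so, beside 6.89% of all genes tested there. hnrnpa0b, with 733 and 875 CPM with the srsf5a morpholino, against 877 and 957 CPM in controls, was also lowest in srsf5a-morpholino replicate 1. hnrnpa1a (-0.13 ± 0.09), HNRNPA1L2 (-0.16 ± 0.10) and HNRNPDL (-0.10 ± 0.09) also had both srsf5a-morpholino libraries below both controls. HNRNPD, a regulator of mRNA decay, stood at 0.02 ± 0.09 and hnrnpa3 at 0.02 ± 0.15.

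The remaining hnRNP genes differed within families by at most 0.18 on the log2 scale. hnrnph1l, of the family that binds runs of G, was at -0.21 ± 0.10 and hnrnph1 at -0.08 ± 0.12. hnrnpul1l was at -0.16 ± 0.10 and hnrnpul1 at -0.05 ± 0.10, and hnrnpl2 at -0.06 ± 0.10 where HNRNPL was at -0.24. Both HNRNPK genes, which bind runs of C, were near 0, at -0.08 ± 0.10 (ENSDARG00000007034) and -0.05 ± 0.12 (ENSDARG00000018914). hnrnpc, which binds runs of U, stood at 0.01 ± 0.10 and hnrnph3 at -0.05 ± 0.16. Of all listed entries, 29.0% to 34.2% had several alignments and were not counted to genes, so separate values of near-identical copies are uncertain. Whether a read with several alignments was entered only once is not stated. The rule's names ptbp1a, ptbp1b and ptbp2a matched no gene. Genes listed as PTBP1 and PTBP2 without a letter, polypyrimidine tract binding genes outside the rule, stood at 0.16 ± 0.09 (ENSDARG00000019362) and 0.05 ± 0.09 (ENSDARG00000031907) for PTBP1 and -0.53 ± 0.12 for PTBP2, a splicing regulator of young neurons (adjusted p = 0.0679 in edgeR). PTBP2 had 108 and 132 CPM with the srsf5a morpholino, against 175 and 172 CPM in controls, and was looked up after the members' values were seen.

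**Figure D4:**
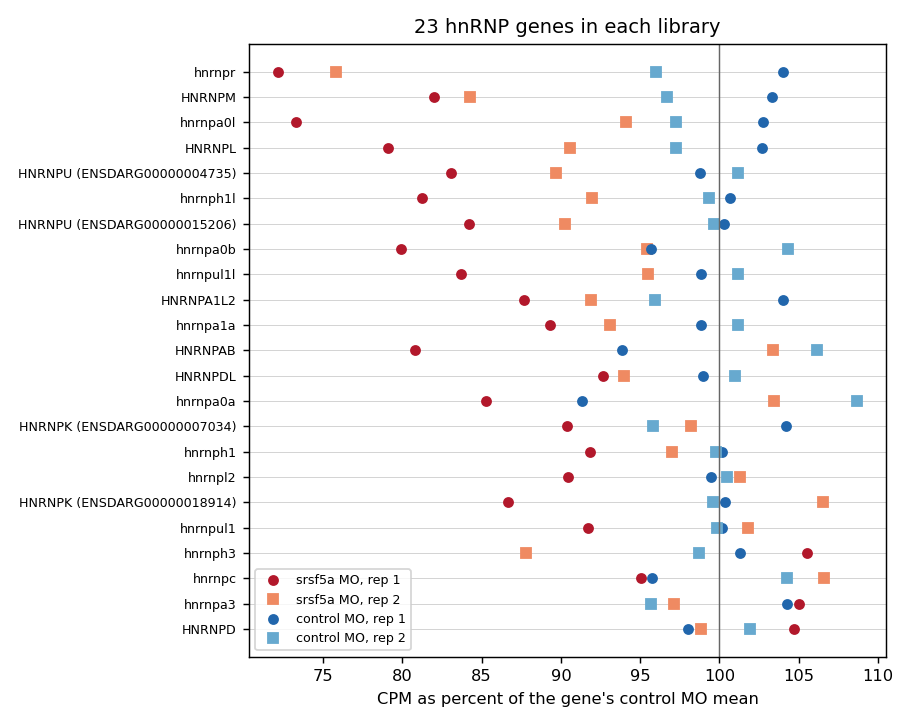
CPM of the 23 hnRNP genes in each library as a percent of the gene's control mean (x axis), with genes down the page from the lowest log2 fold change to the highest. hnrnpr at the top has its srsf5a-morpholino libraries at 72.1% and 75.8% of its control mean, while at the bottom the libraries of the groups mix.

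Other splicing genes were counted beside the members. Of 94 genes matched, 93 were tested and 0 passed in edgeR, where 1.98% of all genes did. An unadjusted p under 0.05 in edgeR was found for 15, 5 higher and 10 lower, or 16.1% against 20.6% of all genes. DESeq2 called 4, all lower, where it called 5.49% of all genes. edgeR called 4 when srsf5a-morpholino replicate 1 was left out, beside 5.69% of all genes, and 6 when replicate 2 was, beside 6.89%. Taken over all 93 genes together, these counts lie near the shares over all genes, but they were not spread evenly over the roles. All 10 lower genes with an unadjusted p under 0.05 in edgeR were among the 29 tested regulators of alternative splicing. They made up 34.5% of these regulators, against 20.6% of all genes in either direction. The 4 genes that DESeq2 called, CELF2, NOVA1, nova1 and TARDBP, were regulators too. Of the 29 regulators 25 lay below 0, with a median of -0.15. In 19 (65.5%) both srsf5a-morpholino libraries lay below both controls, as they did in 26.3% of all genes. Among 8 genes of snRNP assembly 7 lay above 0, with a median of 0.17. The neuronal splicing regulator nova1 (ENSDARG00000020178) had 50.4 and 48.5 CPM with the srsf5a morpholino, against 67.5 and 66.1 CPM in controls, a log2 fold change of -0.43 ± 0.09 (adjusted p = 0.0632 in edgeR). A second gene, NOVA1 (ENSDARG00000017673), stood at -0.49 ± 0.12 (adjusted p = 0.0828). coil, which encodes the Cajal body protein coilin, had 11.2 and 13.0 CPM against 7.01 and 8.51 CPM in controls (0.63 ± 0.16, adjusted p = 0.0958). Of the SR genes, which were not among those 94, srsf5a itself had a log2 fold change of 0.18 ± 0.11 and SRSF9 one of -0.67 ± 0.11 (adjusted p = 0.0382 in edgeR). SRSF9 was chosen after its values were seen. A total count of srsf5a does not show whether its splicing was blocked.

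Markers of tissues that make up a whole embryo, and of dividing cells, were read in the same libraries. All 6 neuronal marker genes lay below 0 (median -0.22) and 0 passed in edgeR. They summed to 1006 and 1032 CPM in srsf5a-morpholino libraries, against 1306 and 1248 CPM in controls. The 5 markers of dividing cells lay on both sides of 0, with sums of 1333 and 1594 CPM against 1605 and 1568 CPM in controls, again lowest in srsf5a-morpholino replicate 1. ELAVL3, ELAVL4, mki67, PCNA and the other markers of both lists had reads in every library. Their part in the hnRNP values was not tested. Of 28 marker genes tested over 8 marker groups 3 passed as lower and 0 as higher, beside 1.98% of all genes in either direction. The retina markers held both crx (ENSDARG00000011989) and CRX (ENSDARG00000043483), whose names differ only in case, and 1 retina marker passed. The 3 genes that passed were hbae1.1 of red cells, CRX of the retina and tfa of the liver. Their log2 fold changes were -0.88, -0.96 and -1.04 (adjusted p in edgeR = 0.0189, 0.0219 and 0.0331). All 3 red cell markers lay below 0. The 3 liver markers had a median of -0.12 and a highest value of 0.07, and 1 of 3 tested retina markers stood at 0.14. Both lens markers stood higher without passing, at 0.89 and 1.12. The 4 skeletal muscle markers ran from -0.08 to 1.17 with a median of 0.18, and 0 passed. Their sums overlapped, at 10267 and 9472 CPM with the srsf5a morpholino, against 10653 and 8882 CPM in controls. Both epidermis markers lay below 0 without passing, at -0.27 and -0.04.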

How the data were processed

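RNA of whole embryos was sequenced (4 libraries). The submitters' processing notes name TopHat, HTSeq, Picard and DESeq2, and the Zv9 build. For their versions, the annotation release and the strand setting of the counting, nothing is stated in the sources at hand. The deposited files hold whole-number read counts per Ensembl gene, with summary totals that were kept out of all tests. Reads assigned to genes were 53.0% to 57.1% of the entries listed, in which a read with several alignments may stand more than once. The authors' deposited table holds a signal column (mean normalized count), log2 fold changes and their errors, the Wald score and p-values, which were used only where they are named.

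Counts were fitted with edgeR 4.0.16 in R 4.3.3 (TMM factors 0.984 to 1.01, filterByExpr with a minimum count of 10 and a minimum total of 15, quasi-likelihood test of the morpholino group), with Benjamini-Hochberg adjustment over all 19917 genes tested. CPM values use TMM-scaled totals. Per-library deviations use log2(CPM + 0.1). Standard errors and 95% intervals come from the edgeR fit. DESeq2 1.42.0, another scaling, other filters, a replicate block and leaving out each library were alternatives. On simulated counts for 19687 genes of this comparison, the fit called 52.1% of genes changed 2-fold, 93.9% of those changed 4-fold and 0.0205% of the unchanged ones. Simulated counts followed the fitted trend of dispersion, with no further variation between genes. The 72 tested members lay within 0.5 of 0 on the log2 scale, below the sizes simulated, so the rates do not apply to changes of that size.

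Libraries of a pair were kept as separate samples. Their counts differed beyond sampling noise (chi-square over its degrees of freedom 13.5 in the srsf5a-morpholino pair, 8.72 in the control pair). That does not show that they came from different pools of embryos. Gene symbols were read from a table that pairs Ensembl identifiers with names, many in human-style capitals. Of 110 other splicing symbols sought, 94 genes were matched, and 29 genes for the 30 markers, in part without the paralog letter. Members and lists were chosen with earlier results of these data known. In each role the members named are those with the lowest p (4, with a mean of at least 5 CPM), the 2 with the most reads and all members that share a name with another. Further members are named to account for the 74, and 1 tested member is counted in its group but not reported here by itself. Of the other splicing genes, the 3 with the lowest p are named.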

Additional observations from a re-analysis of the deposited data

How the results depend on the processing

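The count of members called was 0 in edgeR and 0 to 2 as each library was left out, with hnrnpr and hnrnpa0l called without srsf5a-morpholino replicate 2, where 6.89% of all genes were called. DESeq2 called 1 member, as did the fit with the replicate block (hnrnpr, adjusted p = 0.0318), in which 7.94% of all genes were called. Over all genes the count was 395, against 956 in DESeq2, 1582 with the replicate block and 33 to 1410 as each library was left out. Other splicing genes called numbered 0, against 4 in DESeq2, 5 with the replicate block and 0 to 6 as each library was left out. The replicate numbers of the titles are shared by both groups, and deviations of same-numbered libraries from their group means correlated at 0.37 over 19917 genes, but nothing says that a number marks a shared batch, so the block was not used for the results. Another scaling left the count of members called at 0, where 1.97% of all genes were called. So did both other filters on low counts, with 1.51% of all genes called with no filter and 2.93% with 1 CPM in 2 libraries.

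As each library was left out, the median log2 fold change was highest without srsf5a-morpholino replicate 1 and lowest without srsf5a-morpholino replicate 2 over all members (-0.118 to 0.012), U1 (-0.076 to 0.157), U2 (-0.117 to 0.076), the tri-snRNP (-0.159 to -0.011) and hnRNP genes (-0.210 to -0.065). It was highest without control replicate 2 and lowest without control replicate 1 for Sm, LSm and the minor spliceosome. Their ranges were -0.049 to 0.052, -0.025 to 0.107 and 0.046 to 0.323. Of the 72 tested members, 34 changed sign under some alternative, all with a log2 fold change within 0.17 of 0 with all libraries, and 0 of the 34 were called under any alternative. The 38 genes picked by the naming rule (lowest p or most reads) include nova1, NOVA1 and coil, which are not members and so could not be among those 34. Of the 38, 13 are among them. The ranges of these 13 over the fits that left out a library were -0.312 to 0.050 for HNRNPAB, -0.329 to 0.046 for LSM1, -0.084 to 0.239 for LSM7, -0.096 to 0.013 for SF3B1, -0.065 to 0.118 for SNRNP70, -0.0036 to 0.261 for SNRPB, -0.173 to 0.081 for SNRPC, -0.035 to 0.155 for SNRPD1, -0.134 to 0.042 for SNRPD2, -0.155 to 0.038 for SNRPD3 (ENSDARG00000013800), -0.133 to 0.017 for U2AF2 (ENSDARG00000011740), -0.161 to 0.169 for lsm14aa and -0.032 to 0.257 for snrnp48. With the replicate block lsm14aa stood at 0.0021. With 2 libraries a group, calls rest on each library, and members with a mean near or under 10 CPM, such as PRPF3, PRPF4 and snrnp48, have wide intervals. In fits that left out a library, the lone library of its group was assumed to vary like the other pair.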
